A study of Mus musculus with 24 samples.

Results

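The subunits of the mitochondrial respiratory chain and ATP synthase that are encoded in the nucleus were followed in BV-2 cells, an immortalized line of mouse microglia, after treatment with lipopolysaccharide (LPS), tetrahydrocannabinol (THC) and cannabidiol (CBD). Members were all probes whose annotated symbol is Sdha, Sdhb, Sdhc or Sdhd or starts with Ndufa, Ndufb, Ndufc, Ndufs, Ndufv, Uqcr, Cox4 to Cox8 or Atp5, without the Ndufaf assembly factors and without pseudogenes. This gave 83 probes of 72 genes, out of 24611 probes and 15161 genes on the array. By complex they were 29 genes of complex I, 3 of complex II, 8 of complex III, 16 of complex IV and 16 of complex V. Complexes were assigned by symbol, which places Ndufa4 in complex I.

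Complexes I to IV carry electrons from NADH and succinate to oxygen. Complexes I, III and IV pump protons across the inner mitochondrial membrane, and ATP synthase (complex V) uses the proton gradient to make ATP. Macrophages and microglia that meet LPS are known to lean more on glycolysis and to change how their mitochondria use oxygen. The mitochondrial genome encodes further subunits of complexes I, III, IV and V, which the choice by symbol leaves out.

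The labels divide 24 Illumina MouseRef-8 arrays among 6 groups. The control cells (Cntr) had 6 arrays, cells exposed to 100 ng/ml LPS for 4 h had 6 as well, THC and THC_LPS had 4 each, and CBD and CBD_LPS had 2 each. THC and CBD are isomers, in which CBD has a free phenol where THC has a closed ring, and each was applied for 6 h at 10 µM, with LPS added after the first 2 h in the combined groups. All groups are the same cell line, and the study's methods speak of replicate experiments and independent arrays, without saying if separate cultures lay behind them and with group sizes other than those of the labels. The p-values therefore rest on the spread from array to array, which may in part be technical. The number of arrays limits the precision, above all for CBD and CBD_LPS. Values are the deposited log2 signals, quantile normalized without background correction, so that fold changes of dim probes depend on how the background is treated. A probe was called where the p of its moderated limma test, adjusted by Benjamini-Hochberg across the whole array of 24611 probes, was under 0.05.

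Across arrays the median bead signal ranged from 108.9 to 156.6, and 40.6% to 44.8% of all probes were detected at a p under 0.05. Of the 8 measured genes of a microglia and macrophage list all were detected on at least 1 array, against 2 of 5 for astrocytes, 1 of 4 for neurons, 1 of 4 for oligodendrocytes and 0 of 4 for fibroblasts, and no gene of those other cell types was called in any comparison. Detection on every array is stricter and held for 6 of the 8, against 0, 1, 1 and 0 genes of the other lists in that order. C1qa and C1qc, complement genes of microglia, were lower after CBD (log2 fold changes of -1.71 and -0.94 against Cntr), and their part in the CBD results was not tested. Spi1 of the same list was called higher in LPS versus Cntr, THC_LPS versus THC and CBD_LPS versus CBD.

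Most subunits were readily measured. Of the 83 probes 67 (80.7%) were detected on every array, against 36.3% of all probes, and 61 of the 72 genes had such a probe. For 7 genes no probe was detected on any array. These were Ndufs1 of the NADH-oxidizing arm of complex I, the Rieske protein Uqcrfs1 and the small subunit Uqcrq of complex III, the testis forms Cox6b2 and Cox7b2 and the muscle form Cox8b of complex IV, and Atp5md of ATP synthase. No level can be given for these genes, and an undetected probe on this array does not show that the mRNA was absent. Ndufab1, the mitochondrial acyl carrier protein, was detected on 22 arrays, Ndufb2 on 13, Cox4i2, the form of subunit 4 known from lung and low oxygen, on 11 and Ndufb11 on 9. Sdha, Ndufv2, Cox7a2l, Cox8c and Ndufa4l2 were not analysed here because no probe matched them by symbol.

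Subunit mRNA varied little. Over the 67 probes detected on every array the SD within groups had a median of 0.14 (log2), against 0.18 for all 8934 such probes, and the median distance between the highest and the lowest group mean was 0.26 against 0.43. Many members are bright. At a mean log2 of 12 or more the SDs were 0.13 over 48 members and 0.15 over all 1685 probes, and the distances 0.23 and 0.33. Among 913 tests of a member probe, 83 probes in 9 comparisons of 2 groups and 2 interactions, 3 were called. Cox6a2 was higher after CBD, a dim probe of Ndufv3 was lower after LPS, and Ndufs7 was lower after LPS in cells given THC. By the moderated F test over all groups 6 of 83 probes differed (Ndufa10, Ndufs7, both probes of Ndufv3, Cox6a2 and Atp5g1), or 7.23% against 18.4% of all probes.

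The promoters of 4 of these genes are shown because the following paragraphs turn on them, namely the partner gene of Cox6a2 and the 3 genes with the clearest LPS differences. They are RefSeq sequences of GRCm38.p6 from 250 bases before the annotated start to 50 bases after it, read 5′ to 3′ on the strand of the gene, and capitals mark matches to the letters GCGCATGC (NRF1), CCGGAAG (ETS factors such as GABP) or AAGATGGC (YY1) on either strand. Cox6a1 lies at chr5:115348909-115349208 on the minus strand, Ndufs7 at chr10:80249199-80249498 on the plus strand, Ndufv3 at chr17:31519865-31520164 on the plus strand and Uqcr11 at chr10:80406772-80407071 on the minus strand. The Ndufs7 window lies wholly downstream of the first base of the gene, chr10:80249105, so the annotated start behind it is not that base.
Cox6a1: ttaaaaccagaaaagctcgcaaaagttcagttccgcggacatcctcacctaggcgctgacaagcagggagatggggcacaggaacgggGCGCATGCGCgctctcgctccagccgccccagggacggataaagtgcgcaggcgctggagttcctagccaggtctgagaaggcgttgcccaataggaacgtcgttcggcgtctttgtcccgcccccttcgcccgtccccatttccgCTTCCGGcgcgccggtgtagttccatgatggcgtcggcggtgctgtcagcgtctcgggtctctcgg
Ndufs7: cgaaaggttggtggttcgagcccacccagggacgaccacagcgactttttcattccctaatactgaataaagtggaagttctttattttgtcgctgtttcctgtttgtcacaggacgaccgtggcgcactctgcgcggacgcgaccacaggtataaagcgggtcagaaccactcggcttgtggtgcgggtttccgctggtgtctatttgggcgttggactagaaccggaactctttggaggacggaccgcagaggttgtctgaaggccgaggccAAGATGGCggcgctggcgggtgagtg
Ndufv3: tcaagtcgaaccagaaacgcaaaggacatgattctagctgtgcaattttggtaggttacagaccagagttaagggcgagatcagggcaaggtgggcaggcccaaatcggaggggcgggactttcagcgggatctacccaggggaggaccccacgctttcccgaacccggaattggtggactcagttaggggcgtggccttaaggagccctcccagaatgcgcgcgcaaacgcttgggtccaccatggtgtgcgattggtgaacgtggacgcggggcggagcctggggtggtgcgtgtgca
Uqcr11: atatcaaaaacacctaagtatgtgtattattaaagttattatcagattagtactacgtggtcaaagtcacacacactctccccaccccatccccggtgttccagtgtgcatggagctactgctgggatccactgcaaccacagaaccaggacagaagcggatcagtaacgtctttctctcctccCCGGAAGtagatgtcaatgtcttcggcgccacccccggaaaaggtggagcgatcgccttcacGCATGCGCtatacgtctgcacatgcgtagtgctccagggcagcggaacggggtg
In Cox6a1 a pair of overlapping NRF1 matches starts at bases 89 and 91 and an ETS match at base 235, Ndufs7 has a YY1 match at base 275, and Uqcr11 has an ETS match at base 185 and an NRF1 match at base 247. No match to any of these letters was found in the Ndufv3 window.

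The table held 64 promoters of 59 of the 72 genes, and none of Cox6a2. NRF1 letters were found in 12.5% of them against 2.71% of all 32851 promoters, ETS letters in 21.9% against 8.86%, and YY1 letters in 14.1% against 2.75%. Letters of an amino acid response element (TGATGNAA) were found in 0 of the 64 against 3.97% of all promoters, and those of an antioxidant response element (TGACNNNGC) in 10.9% against 12.4%. The median GC content was 57.5% in the members' promoters and 52.7% in all, and the part of GC content in these shares was not tested. These are letter matches, and binding was not measured.

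LPS lowered 1 subunit probe past the threshold, while most of the others lay slightly below Cntr. In LPS versus Cntr 1 of 83 probes was called lower (background 7.94% of all probes) and 0 higher (background 5.63%). Among all probes detected on every array, as most members were, the shares were larger, with 16.8% lower and 11.4% higher. At an unadjusted p under 0.05, 13 member probes (15.7%) were lower, against 13.5% of all probes, and 0 were higher. Of the 67 probes detected on every array 58 had a log2 fold change below 0, with a median of -0.10, or a decrease of 6.98%. The same over all detected probes was 59.9% below 0 and a median of -0.06. That order depends on the scaling, since with array medians set equal the detected probes had a median of -0.21 and the members one of -0.15. In bulk RNA less message per cell and fewer cells with the message cannot be told apart.

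By array, the median distance of the 67 subunit probes from the Cntr mean ran from -0.19 to -0.05 in LPS and from -0.08 to 0.06 in Cntr, so that the groups overlapped. The same probes ran from -0.22 to -0.06 in THC_LPS and from -0.08 to 0.08 in THC, again with an overlap. Over all detected probes the medians ran from -0.10 to -0.03 in LPS and from -0.03 to 0.01 in Cntr.

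**Figure D1:**
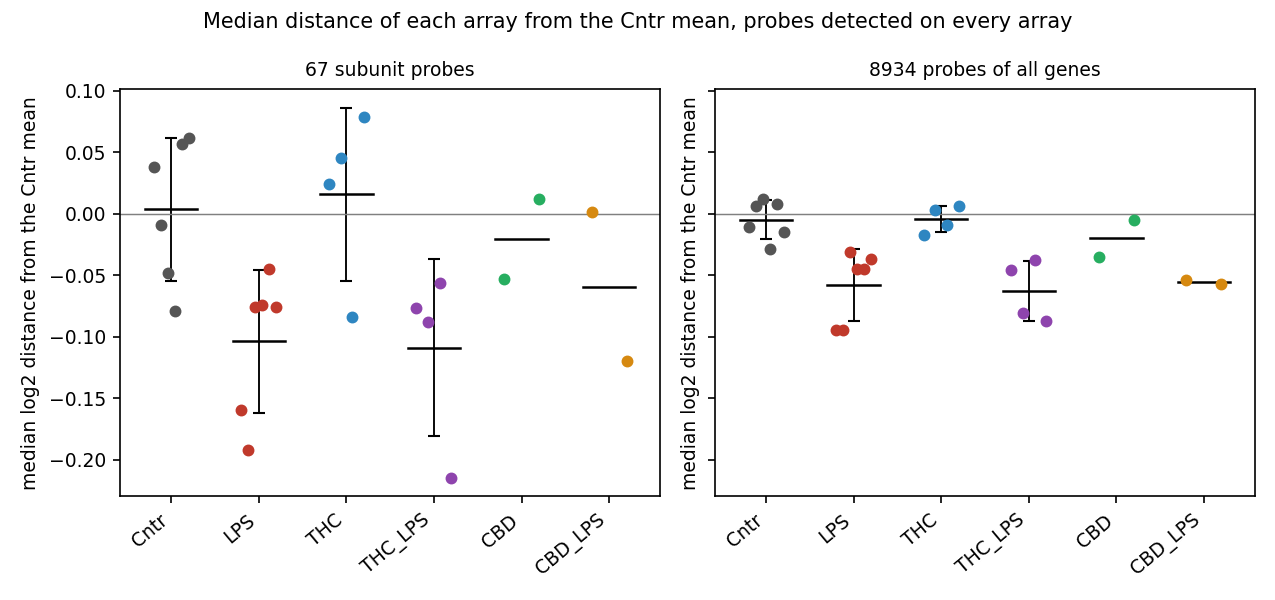
Each point is 1 array, and the y axis gives the median log2 distance from the Cntr mean over 67 subunit probes (left) and 8934 probes of all genes (right) that were detected on every array. Lines are group means and bars SDs (none for the groups of 2), and the LPS arrays, from -0.19 to -0.05 for the subunits, overlap the Cntr arrays, which reach down to -0.08.

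Ndufv3, an accessory subunit of the NADH-binding part of complex I at chr17:31520115-31531326, was lower after LPS on the dimmer of its 2 probes. On that probe the Cntr arrays read 7.86, 7.84, 7.85, 7.66, 7.84 and 7.70 and the LPS arrays 7.63, 7.49, 7.50, 7.43, 7.50 and 7.57. All LPS arrays lay below all Cntr arrays, as was the case for 10.4% of all probes detected on every array. The log2 fold change was -0.27 (SE 0.08, limma adjusted p = 0.014), or a decrease of 17.1%. The size depended on the processing, with -0.09 after background correction by neqc and -0.38 with array medians set equal, both called (adjusted p = 0.020 and 0.00027). The brighter probe read 13.36, 13.54, 13.36, 13.27, 13.70 and 13.27 in Cntr and 13.15, 13.06, 13.24, 12.98, 13.29 and 13.22 in LPS, with some overlap. Its log2 fold change was -0.26 (SE 0.09, limma adjusted p = 0.070), which was called only with detected probes alone and without either CBD_LPS array (adjusted p = 0.047 in each). In THC_LPS versus THC the log2 fold changes of the dimmer and the brighter probe were -0.28 and -0.35, and in CBD_LPS versus CBD -0.32 and -0.36, and none of these was called.

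Ndufs7 carries the iron-sulfur cluster that hands electrons to ubiquinone, and its gene lies at chr10:80249105-80256794. Its THC arrays read 12.59, 12.61, 12.67 and 12.78 and its THC_LPS arrays 12.31, 12.47, 12.37 and 12.24. The groups did not overlap, and the log2 fold change was -0.31 (SE 0.08, limma adjusted p = 0.017), a decrease of 19.6%. Of all probes detected on every array 15.5% lay wholly lower in THC_LPS than in THC. Without THC the Cntr arrays read 12.61, 12.69, 12.72, 12.69, 12.59 and 12.78 and the LPS arrays 12.39, 12.31, 12.66, 12.67, 12.38 and 12.50. Here 2 LPS arrays reached the range of Cntr, and the log2 fold change of -0.20 (SE 0.07, limma adjusted p = 0.063) was not called. This LPS difference was called with neqc (adjusted p = 0.039) and with detected probes alone (adjusted p = 0.042). It was also called without the third or the fourth LPS array (adjusted p = 0.027 and 0.025). The difference between the LPS responses with and without THC was -0.12 (95% interval -0.34 to 0.11) and was not called. Without the fourth THC array the call in THC_LPS versus THC was lost (log2 fold change of -0.28, limma adjusted p = 0.074), and likewise without the fourth THC_LPS array (adjusted p = 0.070).

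Uqcr11, a small accessory subunit of complex III at chr10:80402997-80406821, had the lowest log2 fold change of all members after LPS, yet it was not called. The Cntr arrays read 13.22, 13.21, 13.02, 12.85, 13.31 and 12.87 and the LPS arrays 12.77, 12.40, 12.87, 12.68, 12.95 and 12.84. The ranges overlapped. The log2 fold change was -0.33 (SE 0.12, limma adjusted p = 0.061), and it was -0.34 in THC_LPS versus THC and -0.35 in CBD_LPS versus CBD. The LPS difference was called with array medians set equal (-0.40, adjusted p = 0.040), with detected probes alone, the trended prior, array weights and compared groups alone (adjusted p from 0.041 to 0.049), and in 6 of the 24 fits that left out 1 array (the fourth or sixth Cntr, the fifth LPS, the fourth THC_LPS or either CBD_LPS array).

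**Figure D2:**
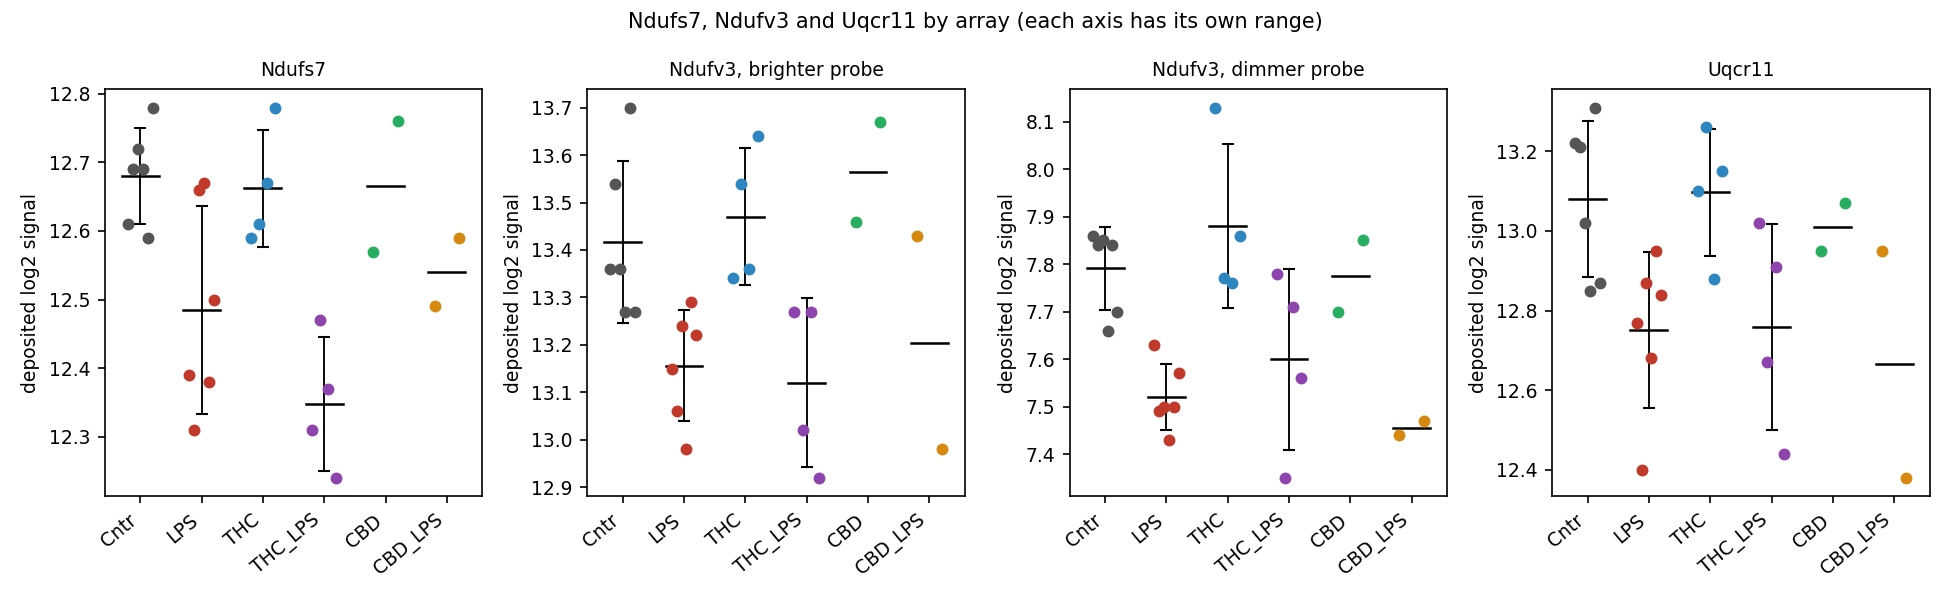
Deposited log2 signal (y axis, each panel with its own range) of Ndufs7, both probes of Ndufv3 and Uqcr11 on each array of the 6 groups (x axis), with group means as lines and SDs as bars for groups of over 2 arrays. On the dimmer Ndufv3 probe the highest LPS array, at 7.63, lies under the lowest Cntr array, at 7.66.

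Among the other core subunits of complex I, Ndufs8, an iron-sulfur protein of the ubiquinone arm, had a log2 fold change of -0.16 (SE 0.07) in LPS versus Cntr and of -0.27 (SE 0.09, limma adjusted p = 0.063) in THC_LPS versus THC. Ndufv1, which binds NADH, had -0.11 (SE 0.08) and -0.15 (SE 0.10). Ndufa4, which is not one of these core subunits, was first described in complex I and is now counted to complex IV. Grouped here with complex I by its symbol, it had -0.12 (SE 0.08) and -0.17 (SE 0.09). In complex II the iron-sulfur subunit Sdhb had -0.23 (SE 0.09) after LPS, and the membrane anchors Sdhc and Sdhd had -0.13 (SE 0.09) and -0.17 (SE 0.13). None of these was called in the fit reported. In THC_LPS versus THC Ndufs8 was called with neqc, detected probes alone and array weights (limma adjusted p = 0.048, 0.043 and 0.038). It was also called there without the third THC or the third THC_LPS array (adjusted p = 0.035 and 0.036).

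In complex III the core proteins Uqcrc1 and Uqcrc2 had log2 fold changes of -0.19 (SE 0.08) and -0.12 (SE 0.08) after LPS. In complex IV, Cox5a had -0.15 (SE 0.06, limma adjusted p = 0.073), Cox5b -0.07 (SE 0.06) and Cox4i1 0.04 (SE 0.08), and the ubiquitous forms Cox6b1, Cox7a2 and Cox8a had -0.10, -0.07 and -0.12. The muscle form Cox7a1 had -0.05 (SE 0.11). In ATP synthase the catalytic head subunits alpha and beta, Atp5a1 and Atp5b, had -0.03 (SE 0.17) and 0.03 (SE 0.08), and the rotating shaft subunit gamma, Atp5c1, had -0.19 (SE 0.07, limma adjusted p = 0.089). Atp5g1, Atp5g2 and Atp5g3, which encode the same mature subunit c of the membrane ring, had -0.16 (SE 0.08), -0.10 (SE 0.07) and -0.01 (SE 0.06). None of these was called in the fit reported. Cox5a was called with neqc (limma adjusted p = 0.016), with detected probes alone (adjusted p = 0.049) and without the fourth LPS array (adjusted p = 0.022). The median log2 fold change was -0.11 over the 29 detected probes of complex I, -0.17 over 3 of complex II, -0.14 over 6 of complex III, -0.08 over 14 of complex IV and -0.10 over 15 of complex V.

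For 82 of the 83 probes the 95% interval of the LPS difference lay within 1.5-fold in either direction. Cox6a2 was the exception, with an interval from -0.90 to 0.93 in log2. The 83 include 12 probes detected on no array, for which a narrow interval says nothing about the mRNA. Among probes detected on every array the interval lay within 1.5-fold for 66 of 67 members, against 74.1% of all such probes.

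**Figure D3:**
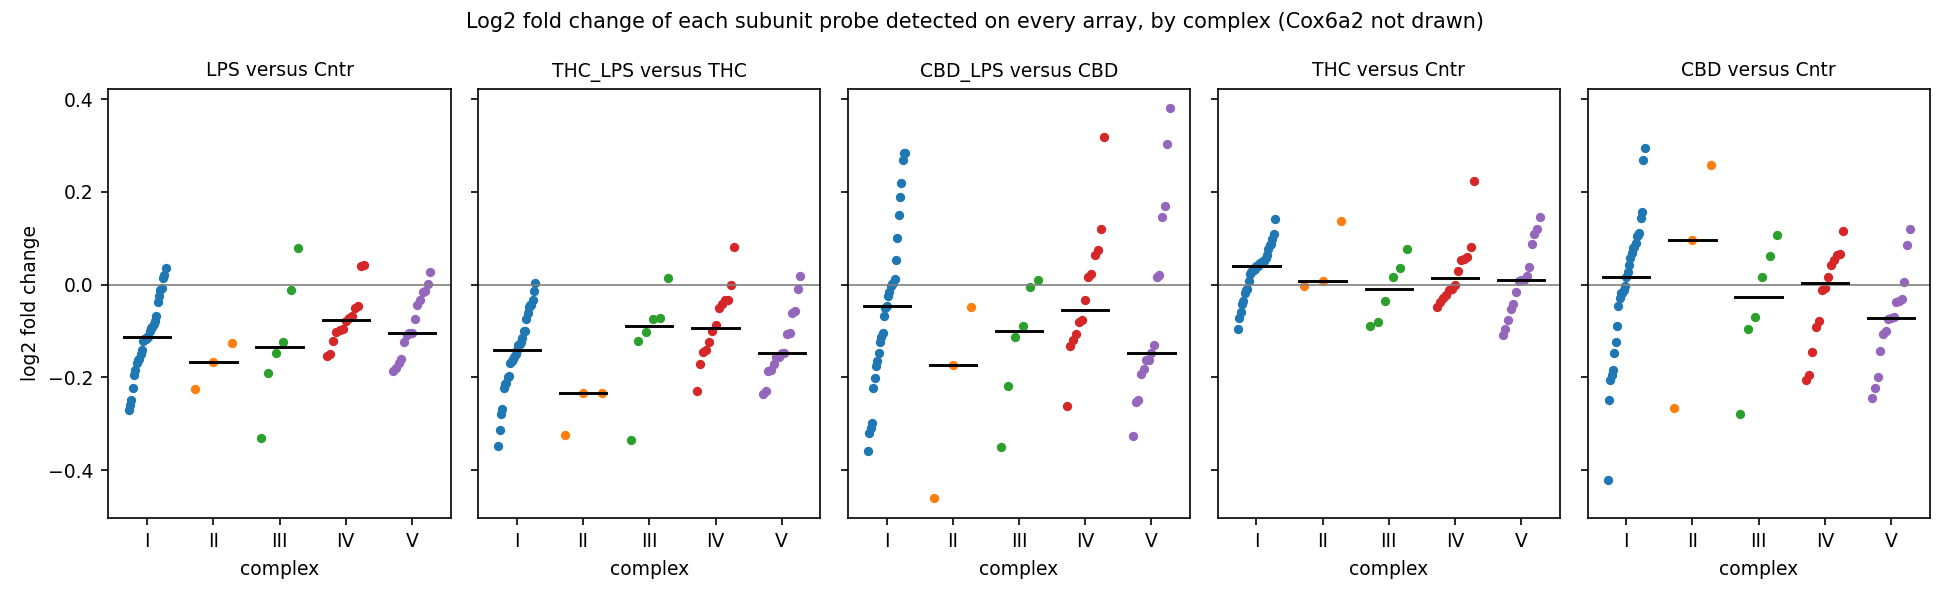
Log2 fold change (y axis) of each subunit probe detected on every array, by complex (x axis), in 5 comparisons, with the median of each complex as a line. Cox6a2, with 2.26 in CBD versus Cntr, is not drawn as a point but counts in the median of complex IV, and after LPS the medians of all 5 complexes lie between -0.17 and -0.08.

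LPS was also given after THC, which allows the LPS difference to be read in separate arrays. In THC_LPS versus THC 1 probe of 83, Ndufs7, was called lower (background 4.81%) and 0 higher (background 3.96%), with 10 lower (12% of members, against 10.7% of all probes) and 1 higher (1.2% against 7.66%) at an unadjusted p under 0.05. Among all probes detected on every array 10.6% were called lower and 8.07% higher. Of the 67 detected probes 63 lay below 0, with a median of -0.13, against 60.2% and -0.06 over all detected probes. With array medians set equal the medians were -0.26 for the members, 67 of 67 below 0, and -0.19 for all detected probes. Over these 67 probes the log2 fold changes of LPS versus Cntr and of THC_LPS versus THC had a Pearson correlation of 0.52 (0.62 without Cox6a2), and 57 probes lay below 0 in both. Over all 8934 detected probes the correlation was 0.96. These comparisons share no arrays, though each sets 1 group of arrays against another and all probes of an array share its RNA and normalization.

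**Figure D4:**
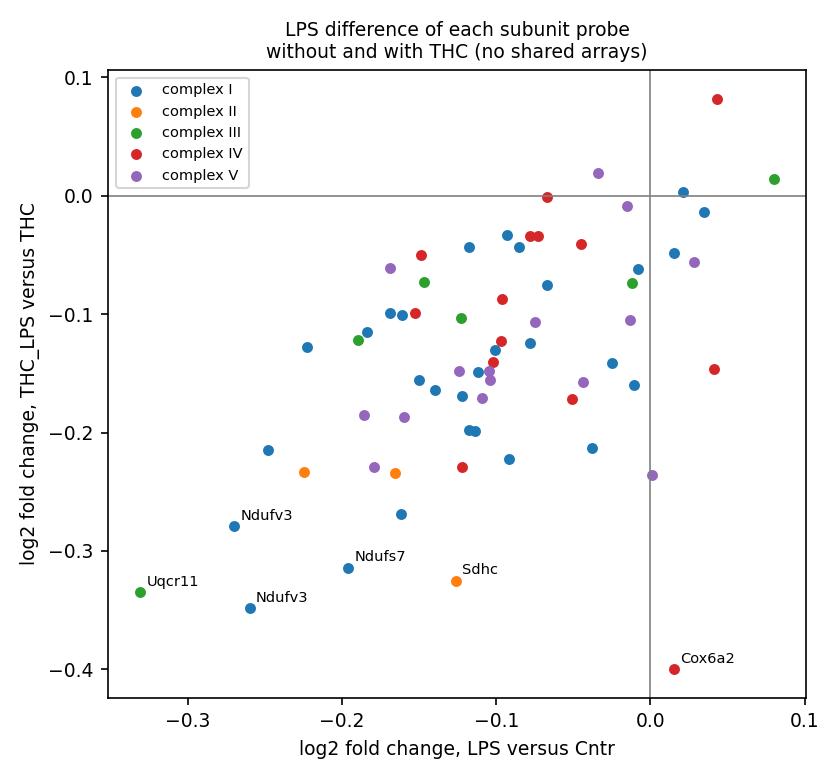
Each point is 1 of 67 subunit probes, with its log2 fold change in LPS versus Cntr on the x axis and in THC_LPS versus THC on the y axis, coloured by complex. Most points, 57 of 67, lie below 0 on both axes, and Ndufv3, Ndufs7 and Uqcr11 lie at the lower left.

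In CBD_LPS versus CBD, with 2 arrays each, 0 of 83 probes were called lower (background 1.51%) and 0 higher (background 1.79%). Among all probes detected on every array 3.41% were called lower and 3.78% higher. At an unadjusted p under 0.05, 5 were lower (6.02%, against 7.01% of all probes) and 0 higher (against 5.79%). Of the detected probes 43 of 67 lay below 0, with a median of -0.08, against 56.5% and -0.04 over all detected probes. With array medians set equal 55 of 67 lay below 0, with a median of -0.19, against 62.9% and -0.09. On its brighter probe Sdhc was at 13.27 and 13.12 in CBD and at 12.76 and 12.71 in CBD_LPS, a log2 fold change of -0.46 (SE 0.16, limma adjusted p = 0.14). For 63 of 83 probes the interval lay within 1.5-fold, and for 49 of the 67 detected ones, against 53% of all detected probes. No member was called in the interaction of LPS with CBD or in that of LPS with THC (0 of all probes called, a background of 0% in either direction), and at an unadjusted p under 0.05 there were 2 higher and 1 lower for CBD (2.41% and 1.2%, against 2.21% and 2.33% of all probes), and 0 higher and 1 lower for THC (1.2% lower, against 1.48% of all probes in either direction).

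CBD raised a single subunit past the threshold, Cox6a2, the form of cytochrome c oxidase subunit 6A known from heart and skeletal muscle. Its Cntr arrays read 10.35, 9.32, 10.98, 10.76, 9.01 and 8.33 and its CBD arrays 12.32 and 11.78. Both CBD arrays lay above all Cntr arrays. With 2 arrays this is common, and it held for 4 of 67 members and 10.8% of all probes detected on every array. The log2 fold change was 2.26 (SE 0.62, 95% interval 0.97 to 3.55), or 4.79-fold, with a limma adjusted p of 0.049, just inside the threshold. The call was lost under 7 of the alternative settings and in 14 of the 24 fits that left out 1 array, with log2 fold changes from 1.92 to 2.53. The adjusted p was 0.93 without the first CBD array and 0.088 without the second, where the lone array is assumed to vary like the other groups.

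In the arrays that also received LPS, the LPS group read 10.20, 10.65, 11.04, 8.59, 9.13 and 9.22 and CBD_LPS 11.56 and 12.02. Both CBD_LPS arrays lay above all LPS arrays, as for 9 of 67 members and 11% of all probes detected on every array. The log2 fold change of 1.98 (SE 0.62, limma adjusted p = 0.079) was not called. It was called without the third LPS array (2.23, adjusted p = 0.044). The THC arrays read 11.43, 9.50, 10.77 and 9.90 and the THC_LPS arrays 9.35, 10.22, 9.84 and 10.60, and 1 THC array, at 11.43, lay above the highest Cntr array. THC versus Cntr gave 0.61 (95% interval -0.41 to 1.63). CBD versus THC, at the same dose and time, gave 1.65 (95% interval 0.29 to 3.02, limma adjusted p = 0.33), and CBD_LPS versus THC_LPS gave 1.79 (95% interval 0.42 to 3.15, adjusted p = 0.24). LPS versus Cntr gave 0.01 (SE 0.44).

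Cox6a2 varied widely among arrays of 1 group. Its SD was 1.06 in Cntr, 0.97 in LPS, 0.87 in THC and 0.54 in THC_LPS. Pooled within groups it was 0.87 in log2, against a median of 0.14 over the 67 detected member probes, and the Cntr arrays alone covered 8.33 to 10.98. Its paralog Cox6a1, the form found in most tissues, read 14.36, 14.12, 14.23, 14.03, 14.30 and 14.13 in Cntr and 14.27 and 14.36 in CBD on its brighter probe, a log2 fold change of 0.12 (SE 0.13, adjusted p = 0.84).

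Cox6a2 lies at chr7:128205435-128206366 in GRCm38.p6, and its end overlaps that of the integrin gene Itgad at chr7:128173933-128205504, which has no matched probe here. In CBD versus Cntr the log2 fold changes were -0.18 for Itgam, -0.63 for Itgax, 0.29 for 9130023H24Rik and 0.07 for Armc5, and none was called. The part of an overlapping transcript in the Cox6a2 signal was not tested.

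**Figure D5:**
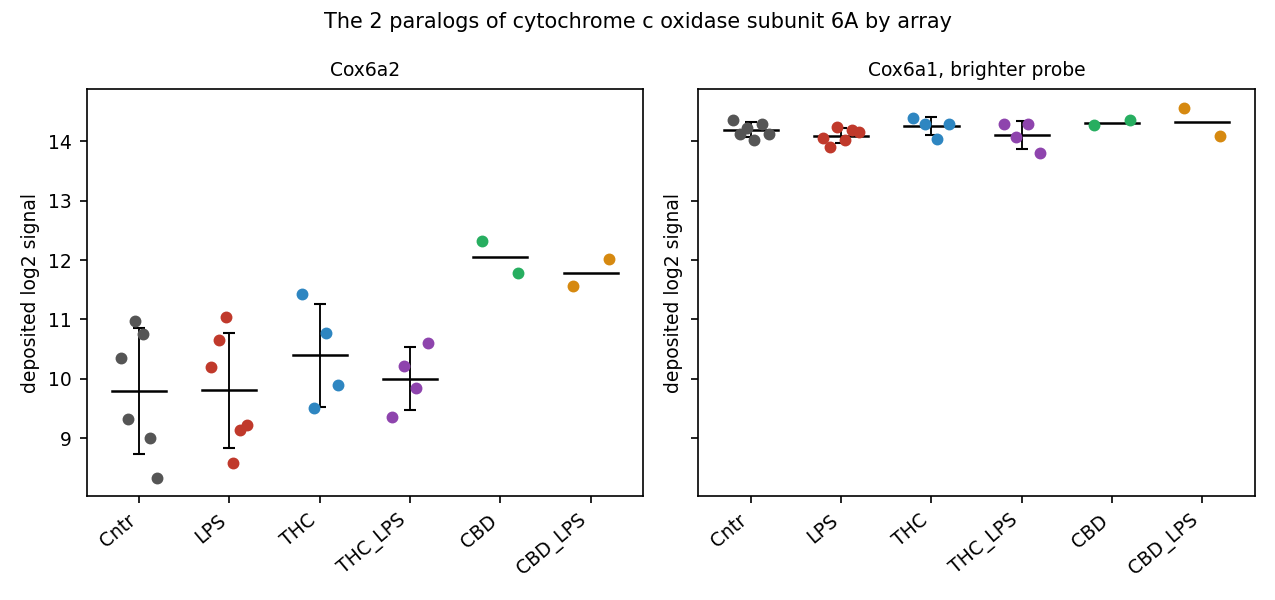
Deposited log2 signal (y axis) of Cox6a2 and of the brighter Cox6a1 probe on each array by group (x axis), with group means as lines and SDs as bars for groups of over 2 arrays. The 4 arrays with CBD lie between 11.56 and 12.32 for Cox6a2, while the Cntr arrays spread from 8.33 to 10.98.

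Apart from Cox6a2, the subunits showed no called difference after either cannabinoid. In CBD versus Cntr 1 of 83 probes was called higher (background 1.71%) and 0 lower (background 1.13%), with 3 higher (3.61%, against 6.78% of all probes) and 1 lower (1.2% against 6.41%) at an unadjusted p under 0.05. Among all probes detected on every array 3.67% were called higher and 2.91% lower. The median over the 67 detected probes was -0.01, and the interval lay within 1.5-fold for 75 of 83 probes. It did so for 60 of the 67 detected ones, against 64.8% of all detected probes. Ndufa10, an accessory subunit of complex I related to nucleoside kinases, read 13.54, 13.52, 13.38, 13.34, 13.45 and 13.34 in Cntr and 13.81 and 13.63 in CBD. Both CBD arrays were above Cntr, as for 10.8% of all detected probes, with a log2 fold change of 0.295 (SE 0.09, limma adjusted p = 0.075).

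In THC versus Cntr 0 probes were called higher (background 0.00406%) or lower (background 0%), and 0 passed an unadjusted p of 0.05 in either direction (2.24% and 2.14% of all probes did). The median was 0.03, and 82 of 83 intervals lay within 1.5-fold. Of the 67 members detected on every array 66 did so, against 91.2% of all such probes.

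In cells with LPS, 0 members were called higher (background 2.41%) or lower (background 1.5%) in CBD_LPS versus LPS, with 4 higher (4.82%, against 8.36% of all probes) and 9 lower (10.8% against 7.6%) at an unadjusted p under 0.05, and the interval lay within 1.5-fold for 74 probes. Among all probes detected on every array 5.17% were called higher and 3.65% lower. The interval lay within 1.5-fold for 59 of 67 members detected on every array, against 62.8% of all such probes. In THC_LPS versus LPS 0 were called in either direction (background 0% for both), with 2 higher (2.41%, against 1.9% of all probes) and 0 lower (against 1.67%) before adjustment, and 82 intervals lay within 1.5-fold. Of the 67 members detected on every array 66 did so, against 92.8% of all such probes. Between the isomers, 0 members were called in CBD versus THC (background 0.52% higher and 0.264% lower) or in CBD_LPS versus THC_LPS (background 0.642% higher and 0.28% lower), with intervals within 1.5-fold for 73 and 72 probes. Of the 67 members detected on every array 58 did so in each, against 66.4% and 66% of all such probes. Before adjustment there were 2 higher and 1 lower in CBD versus THC (2.41% and 1.2%, against 5.31% and 4.68% of all probes), and 5 higher and 5 lower in CBD_LPS versus THC_LPS (6.02% each, against 6.3% and 5.15%). The p-values are adjusted over all probes of each comparison, and a p that misses the threshold does not show that the isomers act alike.

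The arrays of each CBD group differed between themselves for several subunits. Atp5g1 read 14.15 and 14.50 in CBD and 14.33 and 13.82 in CBD_LPS, against 14.30, 14.24, 14.51, 14.31, 14.40 and 14.43 in LPS. Uqcrh, the hinge protein of complex III, read 13.55 and 13.97 in CBD and 14.04 and 13.25 in CBD_LPS. The first CBD array and the second CBD_LPS array were the lower ones for both genes. Of the 67 detected probes 41 were lower on that CBD array, 42 on that CBD_LPS array and 28 on both. Over the 67 detected probes the difference between the first and the second CBD array and that between the second and the first CBD_LPS array had a correlation of 0.68, and over all detected probes 0.75. Without the first CBD_LPS array, the log2 fold changes in CBD_LPS versus LPS were -0.70 for Ndufa3, -0.64 for Uqcrh, -0.55 for Atp5g1 and -0.63 for Atp5j. These values rest on a single CBD_LPS array and were picked after they were seen. With both arrays none of these subunits was called. The part of this array difference in the CBD results was not tested.

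Genes that serve the respiratory chain without being chosen as subunits were read from 4 lists. Their median log2 fold changes after LPS were 0.10 for regulators, -0.09 for assembly factors, -0.11 for carriers and -0.09 for the tricarboxylic acid cycle, against -0.06 over all detected probes. Of 11 measured regulators of mitochondrial genes, out of a list of 12, LPS raised 2 and lowered 3. Beside these and the following counts, LPS raised 11.4% and lowered 16.8% of all probes detected on every array, and in THC_LPS versus THC 8.07% were higher and 10.6% lower. Gabpa and Gabpb1, the subunits of the ETS factor GABP, rose by 0.64 in log2 each (SE 0.07 for both, limma adjusted p = 4.8e-07 and 3.9e-07). Ppargc1b, a coactivator of mitochondrial genes, fell by 1.01 (SE 0.12, adjusted p = 6.5e-07), Tfam, which packages and transcribes mitochondrial DNA, fell by 0.40 (SE 0.10, adjusted p = 0.0053), and the mitochondrial RNA polymerase Polrmt fell by 0.41 (SE 0.10, adjusted p = 0.0039). All 5 were also called in THC_LPS versus THC, with log2 fold changes of 0.54, 0.59, -1.11, -0.40 and -0.45. Gabpb1 rose in CBD_LPS versus CBD as well, by 0.71 (adjusted p = 0.0012). In CBD_LPS versus LPS Tfb1m, which modifies mitochondrial ribosomal RNA, rose by 0.58 (adjusted p = 0.0092) and the nuclear receptor Esrra fell by 0.75 (adjusted p = 0.013).

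The subunit genes with ETS letters in the promoter had a median log2 fold change of -0.12 in LPS versus Cntr (12 of 13 below 0), against -0.11 for those without (34 of 38 below 0). For NRF1 letters the medians were -0.15 over 8 genes and -0.11 over 43. For YY1 letters they were -0.04 over 9 genes and -0.12 over 42, while in THC_LPS versus THC they were -0.16 and -0.15. In that comparison the medians were -0.21 with and -0.13 without NRF1 letters, and -0.16 and -0.15 for ETS letters. In LPS versus Cntr all 3 pairs of groups overlapped, and genes without ETS letters ran from -0.26 to 0.04 and those with them from -0.33 to 0.00.

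Of 28 measured assembly factors, out of 36 listed, 1 rose and 5 fell after LPS, a share of those that fell near that of all detected probes. Ttc19 of complex III rose by 0.41 (SE 0.08, limma adjusted p = 0.00025). Coa6, which brings copper to complex IV, fell by 0.51 (SE 0.08, adjusted p = 2.2e-05), and Cox14, Ecsit, Ndufaf7 and Bcs1l, which inserts the Rieske protein into complex III, fell by 0.26, 0.36, 0.32 and 0.30. In THC_LPS versus THC Ttc19 was called higher and Coa6 and Cox19, a further copper factor, lower. CBD lowered Ndufaf4, an assembly factor of complex I, by 0.59 (SE 0.16, adjusted p = 0.045), and Cox19 was lower in CBD_LPS versus LPS by 0.46 (adjusted p = 0.041).

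Of 12 measured electron carriers and other components outside the prefixes, out of 27, 0 rose and 2 fell after LPS, again near the share of all detected probes. Coq9, needed to make ubiquinone, fell by 0.32 (SE 0.09, limma adjusted p = 0.010) and Etfdh, which passes electrons from fatty acid oxidation to ubiquinone, by 0.33 (SE 0.08, adjusted p = 0.0068). Both were also called lower in THC_LPS versus THC, with Coq5, and Coq9 fell by 0.67 in CBD_LPS versus CBD (adjusted p = 0.0095). Of 10 measured enzymes of the tricarboxylic acid cycle, out of 13, 0 were called in any comparison.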

How the data were processed

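RNA from BV-2 cells was measured on 24 arrays, and groups were taken from the sample labels (6 Cntr, 6 LPS, 4 THC, 4 THC_LPS, 2 CBD and 2 CBD_LPS), while the paper's methods give 4 arrays per treatment and its results sextuplicates. The authors deposited mean bead signal intensities, the detection p-value of each probe against negative control beads, and log2 values. A check showed that the deposited log2 values are the bead intensities after quantile normalization and log2, to within 5e-09. Of 24611 probes 19852 carried 1 gene symbol in the platform annotation, and 4759 carried none.

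Group means were estimated for each probe from the deposited log2 values of all arrays (limma 3.58.1, R 4.3.3), with moderated tests and Benjamini-Hochberg adjustment over all probes. No filter was applied. Where several probes matched a gene, the brightest is given, with others where their call differed. Named genes are those called, core subunits and paralog sets, and those singled out for their spread (Uqcrh, Ndufa3, Atp5j and Uqcr11) were chosen after their values were seen. The members and gene lists were chosen with earlier results of these data known. Promoters came from RefSeq GRCm38.p6, all 72 genes were found in its gene table, and 59 of them had a promoter.

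Alternatives were neqc (offset 16), median scaling, detected probes alone, compared groups alone, a trended and robust variance prior, array weights, a replicate block, an unadjusted p of 0.005 and each array left out. The crossed replicate block was added after seeing the data. The procedure was tested on simulated data. The arrays' numbers were not taken to pair the samples. Of 44 same-numbered pairs 16 had deviations that correlated above 0.1, with a median of -0.01 and a range from -0.75 to 0.76. Whether the numbers mark a pairing cannot be settled from these values.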

Additional observations from a re-analysis of the deposited data

Results flagged for a closer look

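Among the named subunits detected on every array, 108 groups of 4 or 6 arrays were searched for an array that stands apart, which chance alone finds in about 5% of groups. There were 2. In the LPS group the second array read 13.24 for Ndufv1, the NADH-binding subunit of complex I, while the others ran from 13.36 to 13.41. The same array read 13.75 for Cox8a, a small subunit of complex IV, while the others ran from 14.05 to 14.15. Without this array Cox8a was called lower in THC_LPS versus THC (log2 fold change of -0.23, limma adjusted p = 0.035), although the array is not in that comparison and enters only through the shared spread.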

How the results depend on the processing

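Of 6259 values of member probes under 7 alternative settings, 6228 stayed on their side of the threshold, 25 came to be called, 6 lost their call and 0 reversed. Only 3 of 913 tests were called in the fit reported, so few values had a call to lose. The 6 lost calls were all of Cox6a2 in CBD versus Cntr, which among these settings kept its call only with detected probes alone. Counts over all probes moved too. Lower in LPS versus Cntr were 1953 in the fit reported, 1856 with neqc, 3198 with median scaling and 2113 with detected probes alone. Members called lower in LPS versus Cntr, 1 in the fit reported, numbered 3 with neqc, 4 with median scaling, 5 with detected probes alone, and 2 with each of the trended prior, array weights and compared groups alone, and 1 to 3 with each array left out (3 without either CBD_LPS array). Members called lower in THC_LPS versus THC, 1 in the fit reported, numbered 2 with neqc, 5 with median scaling, 4 with detected probes alone, 3 with array weights, and 0 to 4 with each array left out (0 without the fourth THC array, 4 without the third THC_LPS array). Over all probes 1184 were lower in the fit reported. They were 1074 with neqc, 1666 with median scaling, 1334 with detected probes alone and 1410 with array weights. The higher member in CBD versus Cntr, Cox6a2, was lost (0 called) with median scaling, the trended prior, array weights and compared groups alone, and 0 to 1 were called with each array left out. With neqc Cox6a2 was lost at an adjusted p of 0.096, while Ndufa10 was called (log2 fold change of 0.30). Over all probes 420 were higher in CBD versus Cntr in the fit reported, 408 with neqc and 247 with median scaling. At an unadjusted p of 0.005, 2 were higher in CBD versus Cntr, 1 higher and 1 lower in CBD_LPS versus LPS, and 1 higher in THC_LPS versus LPS. In CBD_LPS versus LPS neqc and detected probes alone each gave 1 lower, and with arrays left out 0 to 1 were higher. Ndufb11 was called lower there without the first or the second THC array or the fourth LPS array. Fits without a CBD_LPS array leave a single array in that group, so their counts in comparisons with it are not given. In CBD_LPS versus THC_LPS 0 were lower with an array of another group left out. Members differing by the F test, 6 in the fit reported, numbered 3 with the replicate block and 3 to 10 with arrays left out (3 without the fourth THC_LPS array, 10 without the first CBD_LPS array). With the replicate block 0 were higher in CBD versus Cntr, and the other counts of calls in 2-group comparisons did not move. With the CBD_LPS numbers crossed, since same-numbered CBD and CBD_LPS arrays deviated oppositely (correlation of -0.75), 0 were higher in CBD versus Cntr. Median scaling moved the median of all detected probes in LPS versus Cntr from -0.06 to -0.21 and turned that of the members in CBD_LPS versus LPS from 0.06 to -0.02 and in CBD versus Cntr from -0.01 to 0.02. It also gave -0.39 for complex II in THC_LPS versus THC and -0.21 for complex IV in CBD_LPS versus CBD. Groups of 2 arrays and probes near background limit what could be called.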
